A study of Mus musculus with 12 samples.

Results

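Atf4, Hspa5, Manf, Dnajc3 and Nupr1, genes of the response to stress in the endoplasmic reticulum (ER), were followed in the mouse renal medulla under water restriction. They are 5 of the 6786 genes that could be named on the array, and they were taken by name, as every clone whose only annotated gene was 1 of the 5. This gave 10 of 15600 clones, with 3 for Hspa5, 3 for Dnajc3, 2 for Nupr1 and 1 each for Atf4 and Manf. The genes were proposed because earlier results of these data had put them on the same side of the comparison between water-restricted and control mice. Their values in that comparison are therefore a description and were not tested.

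Renal medulla was taken from 3 mice under water restriction (WR1, WR2 and WR3) and 3 controls (C1, C2 and C3). Each WR mouse was set against each control on 2-colour arrays, which gave 9 pairs. The pairs WR1 with C3, WR2 with C1, and WR3 with C2 were run in both dye orientations, so there were 12 arrays. On 6 of them, called 546 arrays here, the WR mouse carried Alexa Fluor 546, and on the 6 called 647 arrays it carried Alexa Fluor 647. The labels give no strain, sex, age, length of restriction or other treatment, and the tissue holds many cell types at once.

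The ER folds proteins bound for the membrane and for secretion. When unfolded proteins build up there, the sensors PERK, IRE1 and ATF6 are activated, translation is slowed through phosphorylation of eIF2 alpha, and the factors ATF4, spliced XBP1 and cleaved ATF6 switch on genes for chaperones, amino acid supply and degradation of misfolded proteins. ATF4 is also induced without ER stress, for example by amino acid shortage. Cells of the renal medulla live in an interstitium made hypertonic by salt and urea, and water restriction raises that tonicity as urine is concentrated.

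Each value is a log2 ratio of the channels of an array. The sources used here do not say which dye is the numerator, so ratios were turned to 1 orientation by changing the sign of the 647 arrays. A positive value means more signal in WR mice if the ratio is 546 over 647, and less if it is the reverse. That direction stays unknown. In what follows, the words positive, negative, above, highest and lowest carry only this sign. The turning itself rests on little over the whole array. Across clones, which do not count as replicates, both turned arrays of a swapped pair had r of 0.14, -0.13 and 0.13, and arrays of 1 orientation had r of -0.02 to 0.40. The array of WR2 with C2 stood apart, with an SD over spots of 1.21 against 0.515 to 0.764 on the other 11 arrays. From the 12 ratios a weighted fit with a dye term gave each mouse a level, with a sum of 0 over the 6 mice. The difference between groups is the mean of 3 levels minus the mean of the other 3, with its SE over mice. Every mouse is 1 animal, and ratios cannot tell more RNA per cell from more cells of a type.

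All 5 genes were positive in the difference between groups, as were 50.7% of all genes, and in all 5 the levels of the WR mice did not overlap those of the controls, as in 5.94% of all genes on the positive side. Of the 10 clones, 10 were positive (48% of all clones) and 7 had levels that did not overlap (4.56% of all clones). Nupr1 had the largest difference, 1.10 (SE 0.25), followed by Atf4 at 0.77 (SE 0.24), Hspa5 at 0.59 (SE 0.22), Manf at 0.55 (SE 0.17) and Dnajc3 at 0.34 (SE 0.15), each over 3 mice per group. These sizes placed them at ranks 14, 56, 126, 159 and 517 from the top among 6786 genes. Atf4 and Manf were positive on 12 of 12 arrays, as were 1.46% of all genes, and the other 3 on 11 arrays, a count of 11 or more being found in 3.98% of genes. By clone, 4 were positive on 12 of 12 arrays (1.21% of all clones) and 8 on 10 or more (6.01%). Because the genes were chosen on this comparison, the shares beside the background describe the choice and show nothing more. By limma, 0 of 6786 genes (0% called) passed an adjusted p of 0.05 between groups, where 218 genes (3.21%) on the positive side and 119 (1.75%) on the negative side had an unadjusted p under 0.05.

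**Figure D1:**
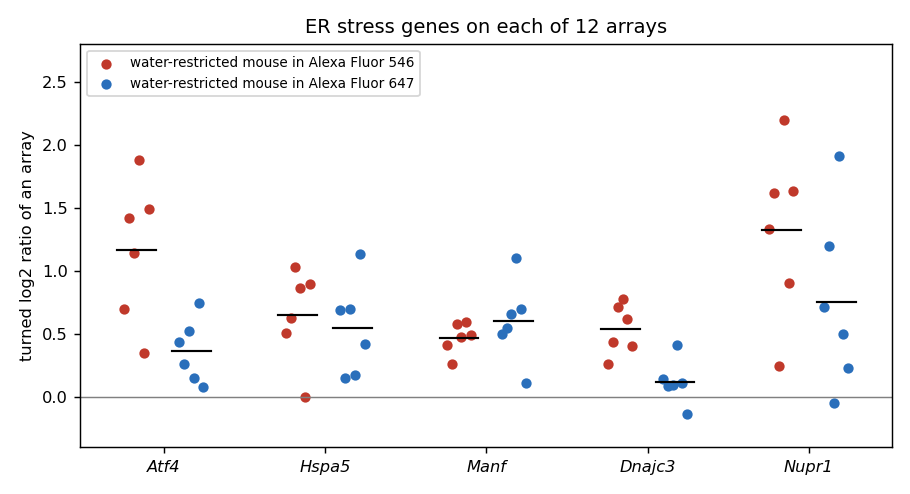
Turned log2 ratio of each of the 12 arrays (vertical axis) for the 5 genes, with 6 arrays per dye orientation as points and their mean as a bar. Means were higher on 546 than on 647 arrays for Atf4 (1.16 and 0.36), Nupr1 (1.32 and 0.75), Dnajc3 (0.53 and 0.12) and Hspa5 (0.65 and 0.54), and lower for Manf (0.47 and 0.60).

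Atf4 encodes the transcription factor at the end of the PERK branch, whose translation rises when eIF2 alpha is phosphorylated and which binds promoters of amino acid and stress genes. Its single clone had turned ratios from 0.34 through a median of 1.28 to 1.88 on the 546 arrays, and from 0.08 through 0.35 to 0.74 on the 647 arrays. All 12 ratios were thus positive, but the 546 arrays held the larger ones in the main. The fitted levels were 0.55 in WR1, 0.55 in WR2 and 0.06 in WR3, against -0.44 in C1, -0.77 in C2 and 0.05 in C3. WR3 and C3 were nearly level, so the groups were apart by only a small margin. The dye term of this clone was 0.40 (SE 0.09, limma adjusted p = 0.0437 over all clones), in a test that the choice of genes did not use. The call was lost without any 1 mouse (limma adjusted p from 0.183 to 0.308) and with the first or second spot alone (limma adjusted p of 0.112 and 0.0656). On all arrays it was the 1 of the 10 clones past the threshold, where 3.38% of all clones were, and 3 of the 10 had an unadjusted p under 0.05, where 22.7% of all clones did. With clones averaged to genes, Atf4 was again the 1 of the 5 past it (limma adjusted p = 0.0278), where 6.62% of all genes were. The difference between groups was 1.16 from the 546 arrays alone and 0.36 from the 647 arrays.

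Nupr1 encodes a small nuclear protein that is induced by many stresses and is a known target of ATF4. Its clone 1 ran from 0.54 through 1.59 to 2.05 on the 546 arrays and from -0.12 through 0.60 to 1.72 on the 647 arrays. Clone 2 ran from -0.06 through 1.35 to 2.34 and from 0.02 through 0.61 to 2.09. With clones averaged, the mean was 1.32 ± 0.68 (SD, n = 6) on the 546 arrays and 0.75 ± 0.71 (SD, n = 6) on the 647 arrays, and the dye term of 0.29 did not pass (limma adjusted p = 0.296). Both clones read the mice alike. Their differences between groups were 1.11 (SE 0.24) and 1.09 (SE 0.27), a gap of 0.02 (SE 0.08), and over the 12 arrays they correlated at 0.93. The gene's levels were 0.50 in WR1, 0.73 in WR2 and 0.42 in WR3, against -1.10 in C1, -0.38 in C2 and -0.17 in C3. C1 was by far the lowest, and without that mouse the difference was 0.82. It was 0.84 without the array of WR2 with C2, which had the highest Nupr1 ratio, 2.20. The pair of WR3 with C2 had the lowest values, 0.24 and -0.05 on its swapped arrays.

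Hspa5 encodes BiP, the most abundant chaperone of the ER, which binds unfolded chains and holds the stress sensors inactive. Its clone 1 ran from -0.11 through 0.69 to 1.14 on the 546 arrays and from 0.34 through 0.69 to 1.16 on the 647 arrays. Clone 2 ran from -0.04 through 0.89 to 1.62 and from -0.43 through 0.51 to 1.29, and clone 3 from 0.12 through 0.49 to 0.80 and from 0.14 through 0.45 to 0.93. Clone 3 was positive on 12 of 12 arrays, clone 1 on 11 and clone 2 on 9. The differences between groups were 0.68 (SE 0.23), 0.59 (SE 0.29) and 0.50 (SE 0.18), and gaps between clones, from 0.09 to 0.19, were no larger than their SE of 0.15 to 0.30. The 3 clones correlated with each other at 0.50 to 0.74 over the arrays. Averaged over clones, the levels were 0.58 in WR1, 0.26 in WR2 and 0.05 in WR3, against -0.19 in C1, -0.66 in C2 and -0.04 in C3. WR1 was highest and C2 lowest. In clone 2 the groups overlapped, since WR3 had -0.06 and C1 had 0.02.

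Manf encodes a small secreted protein kept in the ER lumen and released when ER calcium falls, and is a known target of ATF6 and XBP1. Its single clone ran from 0.25 through 0.48 to 0.59 on the 546 arrays and from 0.11 through 0.60 to 1.10 on the 647 arrays. Its levels were 0.27 in WR1, 0.05 in WR2 and 0.50 in WR3, against -0.39 in C1, -0.32 in C2 and -0.11 in C3. All WR mice lay above all controls on the turned scale, with WR3 highest, whereas that mouse was the lowest of its group for Atf4, Hspa5 and Nupr1. Both arrays of each swapped pair read Manf much alike, at 0.41 and 0.50 for WR1 with C3, 0.25 and 0.54 for WR2 with C1, and 0.58 and 0.65 for WR3 with C2. Its dye term was -0.07 (SE 0.08, limma adjusted p = 0.667).

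Dnajc3 encodes a co-chaperone of BiP that also inhibits the eIF2 alpha kinases. Its 3 clones did not agree in size. Clone 3 was positive on 12 of 12 arrays and ran from 0.58 through 0.70 to 1.32 and from 0.07 through 0.49 to 1.07 on the 546 and 647 arrays. Clone 1 was positive on 11 arrays and ran from 0.07 through 0.22 to 0.71 and from -0.00 through 0.16 to 0.21. Clone 2 was positive on 5 arrays only, and ran from -0.01 through 0.48 to 1.01 on the 546 arrays and from -0.71 through -0.24 to -0.02 on the 647 arrays. The differences between groups were 0.23 (SE 0.16), 0.12 (SE 0.17) and 0.67 (SE 0.18) for clones 1, 2 and 3. Clone 3 exceeded clone 1 by 0.44 (SE 0.15) and clone 2 by 0.55 (SE 0.14), while clones 1 and 2 were 0.11 apart (SE 0.19). Levels of WR mice and controls were apart in clone 3 and overlapped in clones 1 and 2. The duplicate spots of clone 2 differed by 0.47 on average, the widest mean gap of the 10 clones, against a median of 0.41 over all clones. Those of clone 1 differed by 0.16 on average but by 1.17 on the array of WR2 with C2, the widest single gap. That array gave the highest ratio of clone 1, 0.71. Over the 12 arrays the spots of clone 1 correlated at 0.33, the lowest of the 10 clones, and those of clone 2 at 0.61. In clone 2 the dye term was 0.41 (SE 0.11, limma adjusted p = 0.0640), close to that of Atf4 in size but not past the threshold. With clones averaged, Dnajc3 had 0.07 in WR1, 0.13 in WR2 and 0.31 in WR3, against -0.19 in C1, -0.26 in C2 and -0.06 in C3, and its difference was 0.53 from the 546 arrays and 0.12 from the 647 arrays. The sequences of the clones were not used here, so which transcript part each reads is not known.

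**Figure D2:**
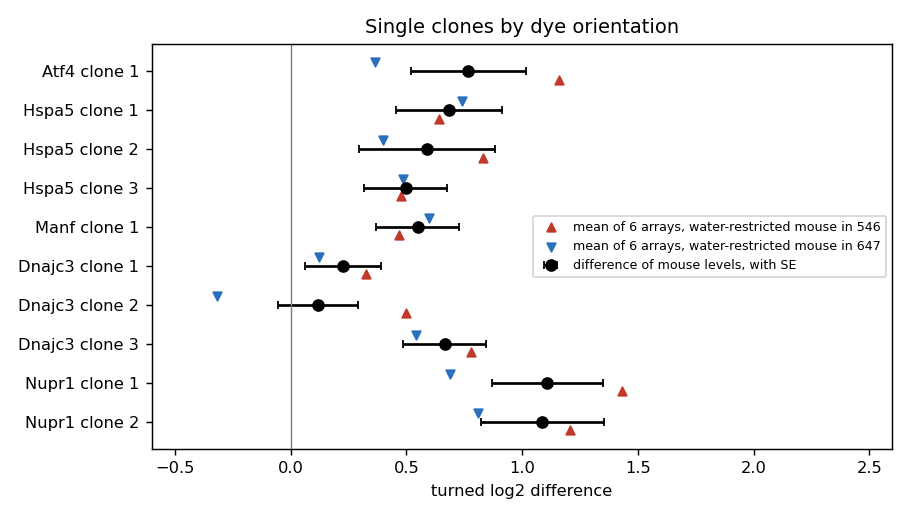
Difference between groups for each of the 10 clones (black, with SE over 3 mice per group) and the mean turned log2 ratio of the 6 arrays of each dye orientation (triangles). The 3 Hspa5 clones lay between 0.50 and 0.68, the 3 Dnajc3 clones between 0.12 and 0.67, and the mean of Dnajc3 clone 2 was 0.50 in one orientation and -0.32 in the other.

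The promoters of 4 of the 5 genes were in the RefSeq promoter table of build GRCm38.p6, and the 250 bases before the start site are shown for the 3 that held a motif searched for, because ATF6, XBP1 and ATF4 act on genes of this kind through short motifs there. The ER stress element, CCAAT and CCACG with 9 bases of any kind between them, is bound by ATF6 with NF-Y, and the C/EBP-ATF response element, TGATGNAA, by ATF4 with a partner. Capitals mark the fixed letters of a match on either strand.
Hspa5, chr2:34771840-34772089, plus strand: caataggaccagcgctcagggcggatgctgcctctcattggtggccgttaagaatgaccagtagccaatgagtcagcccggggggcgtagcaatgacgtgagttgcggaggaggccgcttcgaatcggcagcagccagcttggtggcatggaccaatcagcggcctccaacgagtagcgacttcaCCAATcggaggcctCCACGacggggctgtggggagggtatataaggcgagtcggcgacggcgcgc
Dnajc3, chr14:118937682-118937931, plus strand: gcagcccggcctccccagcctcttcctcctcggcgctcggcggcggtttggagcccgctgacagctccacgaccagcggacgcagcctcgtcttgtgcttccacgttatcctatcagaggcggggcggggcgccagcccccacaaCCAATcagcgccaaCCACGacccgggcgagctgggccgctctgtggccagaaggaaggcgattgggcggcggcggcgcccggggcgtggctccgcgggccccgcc
Nupr1, chr7:126625471-126625720, minus strand: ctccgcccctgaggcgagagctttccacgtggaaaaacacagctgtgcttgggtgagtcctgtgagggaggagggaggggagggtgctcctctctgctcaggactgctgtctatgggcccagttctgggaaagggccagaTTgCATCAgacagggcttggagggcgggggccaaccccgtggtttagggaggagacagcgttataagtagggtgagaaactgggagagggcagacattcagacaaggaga

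Hspa5 and Dnajc3 each held 1 ER stress element on the plus strand of the gene, 65 to 47 and 105 to 87 bases before the start. That motif was in 37 of 32851 promoters of this length, or 0.113%. Nupr1 held 1 C/EBP-ATF response element, on the opposite strand, 110 to 103 bases before the start, a motif found in 3.45% of promoters. The ER stress element II, ATTGG and CCACG with 1 base of any kind between them, in 0.0304% of promoters, and the unfolded protein response element, TGACGTGG, in 0.563%, were in none of the 4, and the Atf4 promoter held none of the 4 motifs. No 2 motifs overlapped in these promoters. Among the other measured genes, 12 had an ER stress element, with 8 positive and a median difference of 0.03, and 141 had a C/EBP-ATF response element, with 70 positive and a median of -0.00, beside a median of 0.00 over all genes. Only exact matches of the fixed letters were counted, so near matches were left out. A match of letters is a description and says nothing about binding.

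Mice of the same group were compared by limma's F-test on the 12 arrays, against the technical error between arrays. None of the 10 clones passed after adjustment (adjusted p from 0.351 to 0.858), where 0.179% of all clones did. At an unadjusted p under 0.05 there were 3 of the 10, Atf4 and clones 1 and 2 of Hspa5, where 11.5% of all clones had this. In these 3 clones C2 had the lowest level, from -0.70 to -0.90. The 5 genes thus did not share 1 order of mice. C2 was lowest for Atf4, Hspa5 and Dnajc3, and C1 for Manf and Nupr1. C3 was the highest control for all 5.

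**Figure D3:**
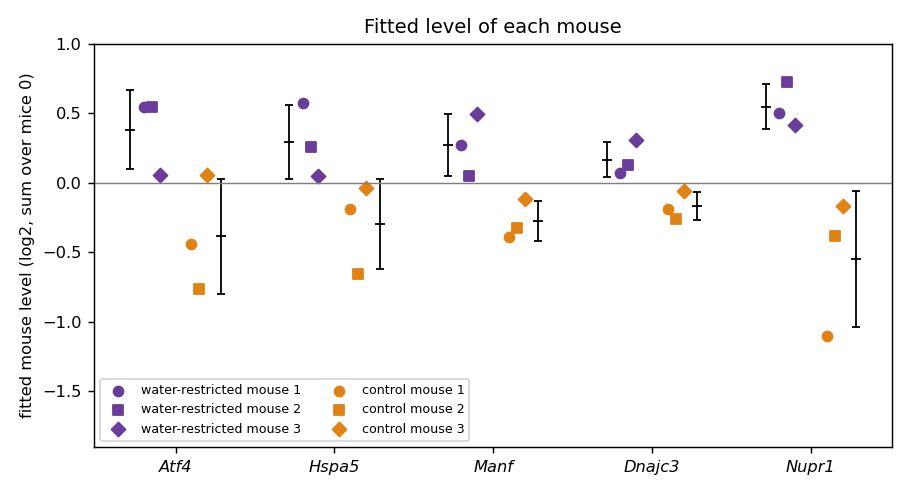
Fitted level of each of the 6 mice (log2, sum over mice 0) for the 5 genes, with the mean and SD of each group of 3 mice as black bars. Turned levels of water-restricted mice lay above those of controls for every gene, but which group had more signal is unknown. The margin was small for Atf4, where mouse 3 of both groups had 0.06 and 0.05, and wide for Nupr1.

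In the order of the differences between groups, neighbouring genes were not clearly apart. Nupr1 exceeded Atf4 by 0.33 (SE 0.33), Atf4 exceeded Hspa5 by 0.18 (SE 0.14) and Hspa5 exceeded Manf by 0.04 (SE 0.29). The step from Manf to Dnajc3 was 0.21 (SE 0.10). Over the 12 arrays, the largest correlations among the 5 genes were those of Atf4 with Hspa5 and with Dnajc3, both at 0.64, followed by Dnajc3 with Nupr1 at 0.49 and Atf4 with Nupr1 at 0.46. Manf stood apart from Atf4 at -0.23 and from Hspa5 at -0.12. These arrays share mice and are not independent, so the values are a description.

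In 14 of 15 combinations of a gene and a swapped pair, both arrays gave the same turned sign, or 93.3%, against 51.9% over all genes. The exception was Nupr1 in WR3 with C2. The genes were chosen for a positive mean over these arrays, so the share is not independent of the choice. When the deposited ratios were read as already turned, Manf had -0.06 and Hspa5 0.04, Atf4 had 0.42, Nupr1 0.31 and Dnajc3 0.22. Every statement on the difference between groups therefore rests on the ratios running by dye.

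For each gene the 5 genes most like it were taken by Pearson's r over the 12 arrays, out of 6785 others. For Manf the first was Xbp1, the transcription factor spliced by IRE1, at r = 0.92 over 12 arrays and 0.78 without the 2 arrays farthest from the median of Xbp1. It was 0.87 on the 546 arrays and 0.96 on the 647 arrays, 6 of each. Xbp1 had 0.11 in WR1, 0.00 in WR2 and 0.29 in WR3, against -0.23 in C1, -0.17 in C2 and 0.00 in C3. This is the order of Manf in both groups. The levels and the r of each orientation come from the arrays on which Xbp1 was chosen, so they are not separate from that choice. Xbp1 was measured by 1 clone, and its difference between groups was 0.27 (SE 0.16, limma adjusted p = 0.996). The other genes most like Manf were Itm2b, Dap, Hnrnpab and Cisd1, at 0.82 to 0.86. Xbp1 was the only one of the 25 such genes in the 5 pathway lists used below, which held 1.40% of measured genes apart from the 5.

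**Figure D4:**
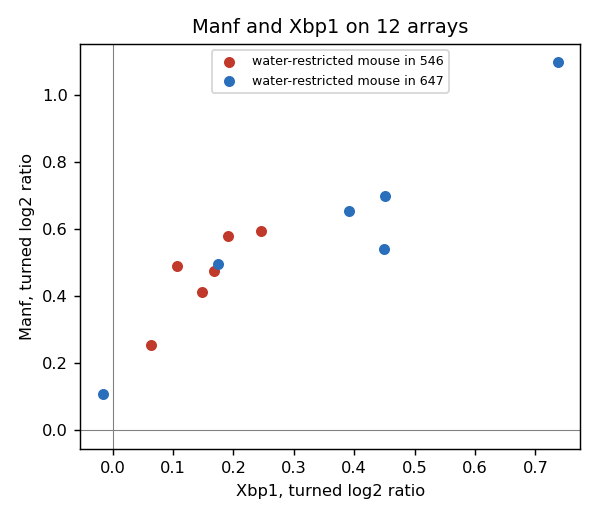
Turned log2 ratio of Manf against that of Xbp1 on the 12 arrays, coloured by dye orientation. Points of both orientations lie along 1 rising band (r = 0.92), from the array of WR2 with C3, at -0.02 for Xbp1 and 0.11 for Manf, to that of WR3 with C1, at 0.74 and 1.10.

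For Atf4 the most alike were Map4, a microtubule-associated protein, at 0.94, then Col4a2, Slc31a2, Hspa8, the constitutive cytosolic heat shock cognate, and Gtf2f1, down to 0.92. For Hspa5 they were App, the amyloid precursor protein, at 0.87, Hspd1, the mitochondrial chaperonin, also at 0.87, Npas2, Stx3 and Ywhah, down to 0.83. For Dnajc3 they were Cuta at 0.96, Prelid1, Timm13, Mvp and Tpi1, down to 0.92. For Nupr1 they were Aldoc, an aldolase, at 0.93, Fau, Vps37c, Eif3k and Rad54l2, down to 0.90. None of the 25 genes was alike to more than 1 of the 5. Of the 25, 17 were positive and 8 negative in the difference between groups, where 50.7% of all genes were positive. Of the first gene of each, r within an orientation was lowest for Map4 with Atf4, at 0.68 on the 647 arrays. Arrays share mice, dye and scale, and with so many genes searched a high r is a description only.

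The rest of the pathway was read from 5 lists. Leaving out the 5 genes, 95 of 153 listed genes were measured, of which 61 were positive and 34 negative (64.2% positive, against 50.7% of all genes). Their median difference was 0.07, beside 0.00 over all genes, and it was 0.11 without C1 and 0.03 from the 3 swapped pairs alone. By limma 0 of 95 passed in either direction (adjusted p of 0.771 or above), as did 0 of 6786 genes, and 2 positive and 1 negative had an unadjusted p under 0.05, against 3.21% and 1.75% of all genes. The median of the 95 was 0.17 on the 546 arrays and -0.09 on the 647 arrays, so its sign differed between orientations.

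Of 24 further listed targets of ATF6 and XBP1, mostly chaperones and folding enzymes of the ER, 14 were measured, 10 of them positive, with a median of 0.18. The largest were Dnajb11, a co-chaperone of BiP, at 0.50 (SE 0.20), Dnajb9, another co-chaperone, at 0.28 (SE 0.15), and Dnajc10, a disulfide reductase, at 0.27 (SE 0.49). The lowest were Sil1, a nucleotide exchange factor of BiP, at -0.23 (SE 0.15) and Pdia3, a disulfide isomerase, at -0.17 (SE 0.15). Hsp90b1, Calr and Canx, the abundant chaperones most often induced or studied beside Hspa5, had 0.20 (SE 0.23), 0.23 (SE 0.29) and 0.17 (SE 0.17), and were picked after their values were seen. The median was 0.04 without WR2, -0.06 without C2, the mouse in which the mean level of this list was lowest at -0.26, 0.03 from the 3 swapped pairs alone and -0.08 on the 647 arrays.

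Of 48 further listed genes of the ATF4 branch 26 were measured, 16 positive and 10 negative, with a median of 0.03. The largest were Asns, asparagine synthetase, at 0.34 (SE 0.61), Cth, a cystathionine-cleaving enzyme, at 0.32 (SE 0.17), and Hars, histidyl-tRNA synthetase, at 0.27 (SE 0.24). The lowest were Vldlr, a lipoprotein receptor, at -0.64 (SE 0.20), and Phgdh, the first enzyme of serine synthesis, at -0.50 (SE 0.29). The largest of the 26, at 0.34, lay below both Atf4 and Nupr1, which were chosen on this comparison, so their place above the list describes the choice. Removing single mice gave medians between -0.00, without WR3, and 0.07, without C3, and the 546 and 647 arrays gave 0.18 and -0.09.

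Of 24 stress sensors and regulators 12 were measured, 7 of them positive, with a median of 0.14 that stayed between 0.09 and 0.19 under the alternatives other than reading the ratios as already turned. Tmbim6, a suppressor of ER stress-induced death, had 0.43 (SE 0.19), the sensor Atf6 0.33 (SE 0.16) and Xbp1 0.27 (SE 0.16). At the other end were Mbtps2 at -0.41 (SE 0.34), a protease that cleaves ATF6, and its relative Atf6b at -0.26 (SE 0.47). Mbtps2 was positive on 7 of 12 arrays, with levels of -0.99 in WR2 and 0.51 in C2. Of 26 genes of ER-associated degradation 17 were measured, 12 positive, with a median of 0.11. Ube2g2, a ubiquitin-conjugating enzyme of this route, had 0.51 (SE 0.16), Nploc4, a cofactor of Vcp, 0.41 (SE 0.18) and Vcp itself, the ATPase that extracts proteins from the ER, 0.29 (SE 0.24), while Erlec1, a lectin, had -0.56 (SE 0.49) and Ube2j2, another conjugating enzyme, -0.17 (SE 0.17). Erlec1 was positive on 5 of 12 arrays, with levels of -1.19 in WR2 and 1.28 in C2. Of 31 genes of translocation and processing at the ER membrane 26 were measured, 16 positive, with a median of 0.04. Sec11c, a signal peptidase subunit, had 0.64 (SE 0.51), Ddost 0.33 (SE 0.18) and Dad1 0.29 (SE 0.15), both of oligosaccharyltransferase, whereas Srpr, the signal recognition particle receptor, had -0.36 (SE 0.24) and Srp19 -0.29 (SE 0.14). On the 647 arrays the medians of degradation and translocation were -0.12 and -0.08. The median of degradation was 0.06 without WR2, and that of translocation was 0.03 without WR2, 0.11 without WR3 and 0.13 without C1.

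**Figure D5:**
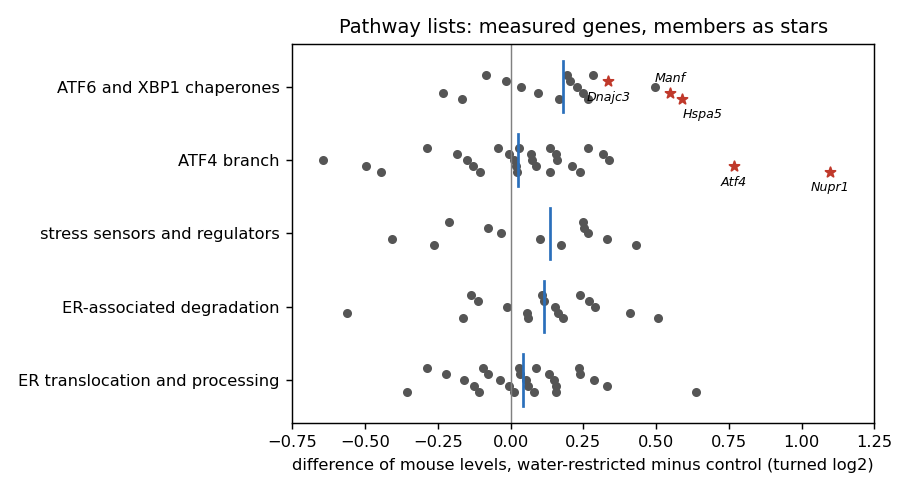
Difference between groups (turned log2, water-restricted minus control) of every measured gene in 5 pathway lists, with the 5 genes described above as stars and the median of the others as a bar. The medians lie between 0.03 and 0.18. Nupr1 and Atf4, at 1.10 and 0.77, are the genes farthest to the positive side, and the starred genes were chosen on this comparison.

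Mean levels of markers of some other cell types also stood apart between the groups. The mean level of 6 measured of 31 proximal tubule genes was 0.34 to 0.42 in WR mice, against 0.13 in C1, -0.68 in C2 and -0.55 in C3, with 4 of 6 genes positive. Among them were Lrp2, an endocytic receptor, at 1.05 (SE 0.35), Gatm, an enzyme of creatine synthesis, at 1.48 (SE 0.52), and Miox, inositol oxygenase, at 1.43 (SE 0.32), with Slc22a7, an anion transporter, at 0.67 (SE 0.52) and Cyp7b1 at -0.08 (SE 0.15). The mean of 9 measured of 20 principal cell genes of the collecting duct was -0.27 to -0.14 in WR mice and 0.12 to 0.40 in controls, with 9 of 9 negative, including Fxyd4 at -1.10 (SE 0.22), Gata3 at -0.59 (SE 0.18), Krt18 at -0.87 (SE 0.19), Krt8 at -0.29 (SE 0.25) and Krt7 at -0.22 (SE 0.20). By limma none of these passed between groups (adjusted p of 0.553 or above). Of the markers named, the dye term passed for Krt18, Krt8, Krt7, Gatm and Slc22a7 (limma adjusted p from 0.0113 to 0.0350), where 6.62% of all genes did. Gatm and Slc22a7 also differed between mice of the same group (limma F-test adjusted p of 0.000713 and 0.0218), where 0.206% of all genes did. Aqp2 and Umod, defining markers of the collecting duct and thick limb, were not among the measured genes. Of the rest, 0 of 10 thick ascending limb genes, 2 of 11 intercalated cell genes (both negative, mean -0.29 to -0.09 and 0.07 to 0.41), 2 of 12 endothelial genes, 4 of 17 leukocyte genes and 9 of 12 interstitial genes were measured. The leukocyte mean was 0.04 to 0.11 and -0.24 to 0.06, that of endothelium -0.02 to 0.13 and -0.17 to 0.12, and that of interstitium -0.19 to 0.01 and -0.02 to 0.18, in WR mice and controls in turn. The mean levels of proximal tubule and principal cell markers thus separated the groups. Among the controls, C1 was highest and C2 lowest for the mean of proximal tubule markers. C2 was also the lowest control for Atf4, Hspa5 and Dnajc3, and C1 was the lowest for Nupr1 and Manf. Single markers did not all separate the groups. C1 lay above WR1 for Gatm (0.65 and 0.58) and Slc22a7 (0.91 and 0.77), and below WR3 for Krt8 (-0.25 and 0.24). The part of these markers in the differences of the 5 genes was not tested.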

How the data were processed

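For each of 31200 spots on 12 arrays of renal medulla RNA, the deposited value is a log2 ratio between channels, made by the authors. That the scale is log2 is taken from signed values centred near 0, the lowest of them -15.2, and no header states it. Background correction, normalization, numerator dye and software: not given in the sources used here. Scanner signals were not used here. The number of mice, 3 per group, limits the precision of the difference between groups. The mean of both adjacent spots was used for each of 15600 clones. The platform annotation gave 1 gene for 9191 clones, several for 254 and none for 6155, and 9085 were updated through Entrez identifiers in a RefSeq table (GRCm38.p6). The mean over clones gave values for 6786 genes.

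Mouse levels came from weighted least squares with a dye term, and each array of a swapped pair weighed 0.5. Levels were compared 3 against 3 with limma 3.58.1 in R 4.3.3, and SEs are from its moderated variance, while SEs of gaps between genes or clones are ordinary ones. The F-test and dye term used 12 arrays of equal weight. Adjustment was Benjamini-Hochberg over all clones or genes, at 0.05. The procedure was tested on simulated data. Their noise was drawn from the technical error between arrays, without random variation between mice. The simulation therefore says nothing of power or error at the real spread between mice. The members and lists were chosen with earlier results of these data known. Genes named beside the 5 followed a rule of 5 most alike by r, 3 largest and 2 lowest per pathway list, and up to 5 markers by list order. Hsp90b1, Calr and Canx fall outside this rule and were chosen after their values were seen. Alternatives were centring, scaling, weights, dye term, orientation, swapped pairs, a replicate block, single spots, median over clones, arrays as replicates, the sign as deposited, and leaving out an array or mouse.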

Additional observations from a re-analysis of the deposited data

Results flagged for a closer look

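Among the 20 sets of 6 arrays, 1 for each clone and dye orientation, Dnajc3 clone 3 had 1 of its 546 arrays far above the rest, at 1.32 for WR2 with C2, the array with the widest spread. Chance marks about 1 in 20 such sets. Atf4 differed between the dye orientations, with a dye term of 0.40 (SE 0.09, limma adjusted p = 0.0437), a call that was lost without any 1 mouse (limma adjusted p from 0.183 to 0.308) and with the first or second spot alone (0.112 and 0.0656).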

How the results depend on the processing

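Of 20 alternatives, 19 kept the sign of Manf and 20 that of Atf4, Hspa5, Dnajc3 and Nupr1. Not all of them could move these differences. Leaving out the dye term or adding the replicate block repeated the main values, and arrays as replicates repeated those of equal weights. The genes were also chosen for lying on the same side, so these counts describe the choice. Read as already turned, the ratios gave -0.063 for Manf, 0.038 for Hspa5, 0.22 for Dnajc3 and 0.31 for Nupr1. From the 546 arrays alone Atf4 had 1.16 and Dnajc3 0.53, and the median of the pathway genes was 0.17. From the 647 arrays they were 0.36, 0.12 and -0.090. Without 1 mouse, the difference was 0.58 to 0.99 for Atf4, 0.41 to 0.72 for Hspa5, 0.44 to 0.66 for Manf, 0.27 to 0.39 for Dnajc3 and 0.82 to 1.29 for Nupr1. Genes past the threshold between groups numbered 0, but 1 from the 647 arrays alone, 1 with the 3 swapped pairs and 451 with 12 arrays as replicates, which counts each mouse several times. Mouse numbers mark separate animals, and same-numbered mice deviated with r of -0.01, -0.54 and -0.11. With the number as a replicate block 0 genes passed. The dye term of Atf4, past the threshold on all arrays, was lost without any 1 mouse (0.31 to 0.49, 0 clones called) and with the first or second spot alone (0.39 and 0.41, 0 clones called), these counts being of the 10 clones. Of the 10 clones of the 5 genes, 0 passed the F-test under each alternative it was run with.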
